A study of Mus musculus with 7 samples.

Results

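The genes described here are the mitochondrial solute carriers whose symbol begins with Slc25a, measured in brown fat of mice that lack Gyk, the gene of glycerol kinase, and of wild-type mice. They were found as all genes with such a symbol in the probe table, using probe sets paired with 1 gene, and each gene was read on its brightest probe set by the mean over all arrays. This gave 44 genes on 93 probe sets, of 18193 genes with 1 symbol on the array. The KO group held 4 arrays (replicates 1 to 4) and the wild-type (WT) group 3 arrays (replicates 1, 3 and 4), and WT was the control. Every array held total RNA of brown fat from C57BL/6J males at an age of 3 days. The labels name the targeted gene but give no further detail of the KO allele, and they do not tell whether each replicate was an animal of its own, so the p-values rest on a spread between samples that may be technical. The level of Gyk itself is not analysed here, and an array's genotype is taken from its label.

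Slc25 carriers are membrane proteins, built of repeated pairs of helices, that move metabolites across the inner mitochondrial membrane. They exchange ADP for ATP, bring in phosphate, acylcarnitine, amino acids and cofactors, and let citrate and malate out for synthesis in the cytosol. Ucp1, the protein through which brown fat makes heat, belongs to the same family under another symbol.

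Brown fat markers were bright on all arrays: their 9 genes summed to 100432 to 127670 signal units in KO and 103466 to 121874 in WT, and 0 of 9 passed the test. The array labelled KO replicate 2 stood apart from the other KO arrays. On the first principal component of all tested probe sets (35.3% of the variance) it scored -13.8, against 33.4 to 35.7 for the other KO arrays and -33.3 to -23 for WT. It also read 2760 for Xist, which is transcribed from an inactive X chromosome, where the other 6 arrays read 183 to 273 and all samples are labelled male. On the first component of the Slc25a genes alone (49.5% of their variance) it scored -0.0563, against 0.71 to 1.55 for the other KO arrays and -1.4 to -0.943 for WT. Each Slc25a gene that passes is given with and without it, as are the lists of related genes. The arrays were deposited in separate ranges of sample accessions, called deposit blocks here. The first block held KO replicates 1 and 2 with WT replicate 1, and the second held replicates 3 and 4 of both genotypes. The labels give no date or batch for either.

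Of the 44 genes, 38 passed the filter on dim probe sets (mean log2 value over all 7 arrays at or above the 40th percentile) and were tested. In KO brown fat 1 of the 38 was higher, Slc25a27, and 2 were lower, Slc25a35 and Slc25a25 (limma, Benjamini-Hochberg adjusted p under 0.05 over all 27022 probe sets tested). These 3 genes are 7.89% of the 38. Over the brightest probe set of each gene 1.85% of 13102 genes passed, 1.14% higher and 0.71% lower, and over all probe sets 1.59% passed. Without the array labelled KO replicate 2, 1 member was higher and 3 were lower, which is 10.5% of the 38, against 8.43% of all genes. The median log2 difference of the family (KO minus WT) was -0.01, as was the median over all genes, and 19 members lay above 0 and 19 below. The median size of the difference, regardless of sign, was 0.19 for the family and 0.18 for all genes. The groups did not overlap in 7 of 38 members (18.4%), against 16.7% of all genes, so the share of members whose arrays separated by genotype lay near that of the array as a whole. At an unadjusted p under 0.05 there were 8 members (21.1%), against 18.2% of all genes.

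**Figure D1:**
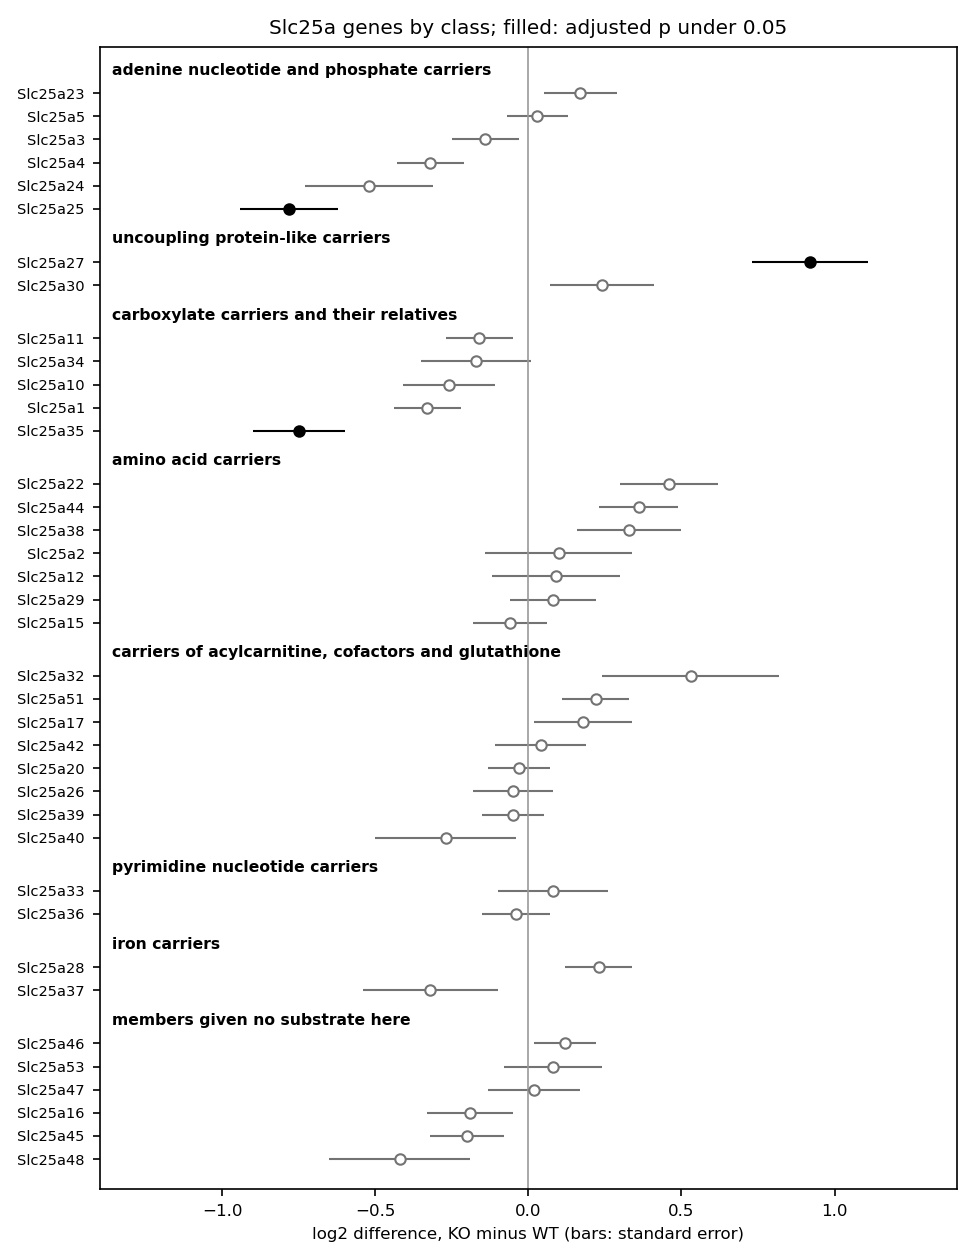
Log2 difference in signal (KO minus WT, horizontal axis) with its standard error for each of the 38 tested Slc25a genes, grouped by what the carriers transport, from 4 KO and 3 WT arrays. Filled points are the 3 genes that passed: Slc25a27 at 0.92 on the right, and Slc25a35 at -0.75 and Slc25a25 at -0.78 on the left; all 5 carboxylate carriers and relatives lie left of 0.

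The uncoupling protein-like carriers held the 1 member that rose. Slc25a27, also called UCP4 and known mainly from brain, read 334.5, 252.6, 314.3 and 233.4 signal units in KO replicates 1 to 4, against 110.9, 143.5 and 150.4 in WT replicates 1, 3 and 4. Every KO array lay above every WT array, including the array labelled KO replicate 2. The mean was 284 ± 48.4 in KO and 135 ± 21.1 in WT (SD, n = 4 and 3). The fit, with an offset of 30.6 added to each signal before log2, gave a 1.89-fold rise (log2 difference 0.92 ± 0.19, SE, limma adjusted p = 0.0437). The limma adjusted p was 0.0201 when the array labelled KO replicate 2 was left out. The log2 difference was 1.18 in the first deposit block and 0.77 in the second, and Slc25a27 did not pass in a fit of the second block alone (limma adjusted p = 0.146). Its remaining 3 probe sets were too dim to be tested and did not follow it: the brightest of them read 3.9 to 41.9 in KO and 28.1 to 104.3 in WT. The rise of Slc25a27 therefore rests on 1 of 4 probe sets, with a signal not far above the filter, whose level corresponds to about 88.9 signal units. Slc25a30, the kidney mitochondrial carrier of this class, averaged 531 ± 91.6 in KO and 443 ± 63 in WT and did not pass (log2 difference 0.24, adjusted p = 0.545). Its 3 tested probe sets differed by 0.21 to 0.38. Slc25a14, or UCP5, was not tested, with 17.9 to 31.2 in KO and 19.4 to 48.7 in WT.

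Among the carriers of adenine nucleotides and phosphate, Slc25a25 fell. It encodes a calcium-regulated carrier that exchanges ATP-Mg for phosphate and so sets the pool of adenine nucleotides in the matrix. Slc25a25 read 385.7, 362.6, 429.1 and 396.6 in KO, against 589.6, 653.4 and 877.8 in WT. The KO arrays were close together and all below the lowest WT array, and the WT arrays were more spread. The mean was 394 ± 27.6 in KO and 707 ± 151 in WT (SD, n = 4 and 3). By the fit with the offset it was 41.8% lower in KO (log2 difference -0.78 ± 0.16, limma adjusted p = 0.0395). The log2 difference was -0.62 in the first deposit block and -0.83 in the second. The limma adjusted p was 0.0234 when the array labelled KO replicate 2 was left out and 0.0628 in the second block alone.

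The other tested probe set of Slc25a25 read 222.6 to 295.6 in KO and 230.3 to 300.2 in WT. It differed by -0.06 and did not pass (limma adjusted p = 0.911). The remaining probe set was too dim to be tested, so the fall of Slc25a25 rests on 1 of 3 probe sets. RefSeq (GRCm38.p6) annotates 3 start sites for this gene on the minus strand of chromosome 2. Which transcripts the probe sets of Slc25a25 read was not tested. Any link between these starts and the disagreement of the probe sets was also not tested. The windows around the starts span 250 bases before to 50 after each start. The capitals mark the cAMP response element TGACGTCA, searched on both strands.
Slc25a25 start 1, chr2:32451421-32451720, minus strand: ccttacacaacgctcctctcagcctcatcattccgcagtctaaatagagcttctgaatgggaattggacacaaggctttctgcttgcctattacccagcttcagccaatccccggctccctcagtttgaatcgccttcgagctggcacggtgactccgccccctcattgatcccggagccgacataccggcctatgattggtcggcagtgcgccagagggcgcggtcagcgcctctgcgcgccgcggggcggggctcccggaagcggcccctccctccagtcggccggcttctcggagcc
Slc25a25 start 2, chr2:32431102-32431401, minus strand: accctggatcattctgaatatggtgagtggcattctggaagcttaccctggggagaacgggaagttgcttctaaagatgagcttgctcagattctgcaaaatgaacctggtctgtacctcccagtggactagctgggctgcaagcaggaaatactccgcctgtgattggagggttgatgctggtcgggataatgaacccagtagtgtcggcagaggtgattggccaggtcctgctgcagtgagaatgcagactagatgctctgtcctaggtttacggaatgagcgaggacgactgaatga
Slc25a25 start 3, chr2:32424017-32424316, minus strand: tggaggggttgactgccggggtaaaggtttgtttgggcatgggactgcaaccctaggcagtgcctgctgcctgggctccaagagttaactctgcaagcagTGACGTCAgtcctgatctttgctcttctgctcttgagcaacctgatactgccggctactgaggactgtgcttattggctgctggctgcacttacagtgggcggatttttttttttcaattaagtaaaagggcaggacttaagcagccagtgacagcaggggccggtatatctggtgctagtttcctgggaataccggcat

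The element was found in the window of start 3, ending 142 bases before the start, and in neither of the other windows. It occurred in 1.79% of 32851 promoter windows of the same length. Of the 44 Slc25a genes 34 matched the promoter table, with 43 windows, and 2 of these windows held the element, those of Slc25a25 and of Slc25a36, a pyrimidine nucleotide carrier. Also searched on both strands were the nuclear receptor element AAGGTCA (1 member window and 4.72% of all windows), the palindromic NRF1 site with its middle base left free (2 member windows and 4.6% of all) and the full palindromic glucocorticoid response element (0 member windows and 3 of all windows). None of these occurs in the windows of Slc25a25. Which start the RNA on these arrays came from was not tested, nor was the part of the element in the fall of Slc25a25.

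The relatives of Slc25a25 did not all move with it. Slc25a24, another calcium-regulated ATP-Mg/phosphate carrier, read 258, 515.1, 401.9 and 294.5 in KO replicates 1 to 4, against 520, 569.4 and 483.9 in WT. The array labelled KO replicate 2 lay within the WT range and the other KO arrays lay below it. Slc25a24 did not pass with all arrays (log2 difference -0.52 ± 0.21, limma adjusted p = 0.245) and was lower without that array (-0.69, adjusted p = 0.0431). Slc25a23, also of this kind, averaged 2738 ± 114 in KO and 2454 ± 377 in WT (log2 difference 0.17, adjusted p = 0.541). Slc25a41, an ATP-Mg/phosphate carrier as well, was too dim to be tested.

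Slc25a4 encodes the ADP/ATP carrier typical of heart and muscle. It read 11975, 12336, 10169 and 10077 in KO, against 15278, 12698 and 13645 in WT. The KO arrays all lay below the WT arrays, but the difference did not pass (log2 difference -0.32 ± 0.11, limma adjusted p = 0.19). All 3 of its tested probe sets lay below 0, from -0.46 to -0.32, with a smallest adjusted p of 0.114. Of the skeletal muscle markers 10 of 10 were measured, none at 0, and 0 passed. They summed to 56902, 51323, 34600 and 29532 in KO replicates 1 to 4, against 58602, 36238 and 37947 in WT replicates 1, 3 and 4. In both genotypes the sums were higher in the first deposit block than in the second. The sums of the 2 genotypes overlap, and the part of muscle RNA in Slc25a4 was not tested. Slc25a5, the ADP/ATP carrier of growing cells, did not pass: on its brightest probe set it averaged 18689 ± 1600 in KO and 18290 ± 419 in WT (log2 difference 0.03), and its 8 tested probe sets ranged from 0.03 to 0.31 with 0 passing. The ADP/ATP carriers are close in sequence, and probe sets whose names end in x_at, among them the brightest of both genes, may bind RNA of more than 1 of them. Slc25a31, the testis form, read 3.3 to 9.2 in KO and 19 to 43.2 in WT, too dim to be tested. Slc25a3, which imports the phosphate for ATP synthesis, averaged 16817 ± 1970 in KO and 18429 ± 335 in WT (log2 difference -0.14, adjusted p = 0.584).

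**Figure D2:**
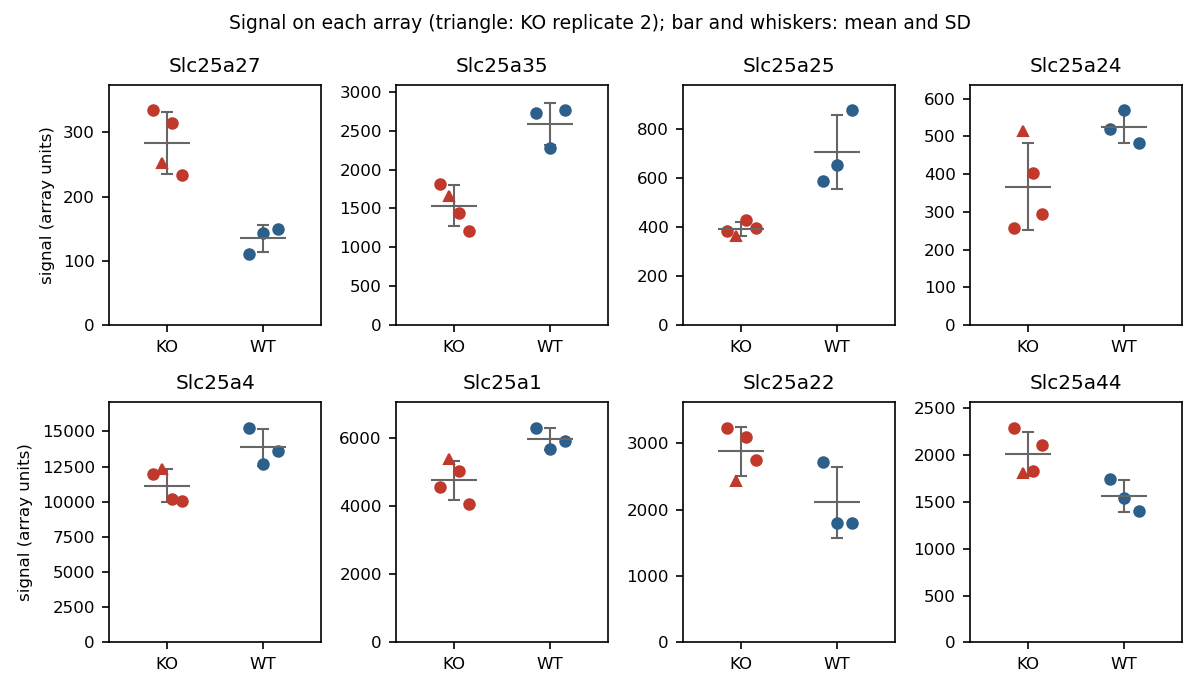
Signal of 8 Slc25a genes on each array, with KO (red) left of WT (blue); points are arrays, the triangle is the array labelled KO replicate 2, and bars with whiskers are means with SD. Groups do not overlap for Slc25a27, Slc25a35, Slc25a25, Slc25a4, Slc25a1 and Slc25a44, and do overlap for Slc25a24 (KO replicate 2 at 515.1) and Slc25a22 (WT replicate 1 at 2720).

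The carboxylate carriers and their relatives all had log2 differences below 0 on their brightest probe sets, and 1 of 5 passed. Slc25a35, a carrier placed here by its likeness to the carboxylate carriers and given no substrate, fell. It read 1820, 1663, 1446 and 1216 in KO, against 2729, 2276 and 2761 in WT. All KO arrays lay below all WT arrays. The mean was 1536 ± 263 in KO and 2589 ± 271 in WT (SD, n = 4 and 3). By the fit with the offset it was 40.6% lower in KO (log2 difference -0.75 ± 0.15, limma adjusted p = 0.0371). With the array labelled KO replicate 2 left out, its adjusted p was 0.0136. Slc25a35 has 1 probe set, and its log2 difference was -0.64 in the first deposit block and -0.90 in the second, which passed when fitted alone (adjusted p = 0.0298). Slc25a34, also without a substrate here, averaged 3197 ± 684 in KO and 3559 ± 509 in WT (-0.17, adjusted p = 0.706).

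Slc25a1 exports citrate from mitochondria, the carbon source for fatty acid synthesis in the cytosol. It read 4577, 5392, 5035 and 4071 in KO, against 6312, 5679 and 5920 in WT. These groups did not overlap, yet the gene did not pass (log2 difference -0.33 ± 0.11, limma adjusted p = 0.179). Slc25a10, the dicarboxylate carrier, and Slc25a11, the oxoglutarate carrier of the malate-aspartate shuttle, differed by -0.26 and -0.16 with overlapping arrays (adjusted p = 0.442 and 0.515). The class median was -0.26, against -0.01 over all genes.

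Of the amino acid carriers 0 of 7 tested passed, and 6 of 7 lay above 0 (class median 0.10). Slc25a22, a glutamate carrier, read 3234, 2429, 3092 and 2743 in KO, against 2720, 1800 and 1801 in WT. WT replicate 1 lay within the KO range and the other WT arrays below it. Its log2 difference was 0.46 ± 0.16 (limma adjusted p = 0.182), made up of 0.04 in the first deposit block and 0.68 in the second, and it was higher in a fit of the second block alone (adjusted p = 0.0339). Slc25a44, the carrier through which brown fat mitochondria take up branched-chain amino acids, read 2296, 1815, 1831 and 2104 in KO, against 1744, 1541 and 1401 in WT. The KO arrays all lay above the WT arrays, but Slc25a44 did not pass (0.36 ± 0.13, adjusted p = 0.184). Its other tested probe sets differed by 0.42 and, on a much dimmer one, by -0.10. Slc25a38, which brings in glycine for haem synthesis, averaged 1057 ± 184 in KO and 840.5 ± 186 in WT (0.33, adjusted p = 0.387). Slc25a2, Slc25a12, Slc25a15 and Slc25a29 lay between -0.06 and 0.10 on their brightest probe sets. Dimmer probe sets lay further from 0, with 1 of Slc25a12 at -0.63 (adjusted p = 0.245) and 1 of Slc25a29 at 0.61 (adjusted p = 0.402). Slc25a13 and Slc25a18 were too dim to be tested.

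Among the carriers of acylcarnitine, cofactors and glutathione 0 of 8 passed, with log2 differences from -0.27 to 0.53. Slc25a20, which carries acylcarnitines in for fatty acid oxidation, averaged 16488 ± 1350 in KO and 16806 ± 1090 in WT (log2 difference -0.03). Slc25a51, which imports NAD, came closest to passing on a probe set that was not its brightest: this one read 1214, 891.2, 1362 and 1184 in KO, against 632.6, 565 and 882.1 in WT. These groups did not overlap (log2 difference 0.73 ± 0.18, limma adjusted p = 0.0732). Its brightest probe set read 12437 to 15061 in KO and 11305 to 12924 in WT (0.22, adjusted p = 0.331). All 3 probe sets of Slc25a51 lay above 0. Slc25a32, the folate carrier, differed by 0.50 to 0.53 on its 3 probe sets, with a smallest adjusted p of 0.23. On the brightest of them KO replicate 4 read 897.4 and the other KO arrays 313.9 to 473.3, against 261.6 to 384.7 in WT. Slc25a39, which imports glutathione, differed by -0.38 to -0.05 on 4 probe sets, and Slc25a40, its relative, by -0.27. The CoA carrier Slc25a42, the peroxisomal Slc25a17 and the S-adenosylmethionine carrier Slc25a26 differed by 0.04, 0.18 and -0.05.

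The iron and pyrimidine nucleotide carriers had 0 of 4 members past the threshold. Slc25a28, or mitoferrin 2, read 1469, 1825, 1704 and 1558 in KO, against 1332, 1420 and 1416 in WT. The groups did not overlap, and the difference was small (log2 difference 0.23 ± 0.11, limma adjusted p = 0.345). Slc25a37, or mitoferrin 1, which feeds haem synthesis in developing red cells, averaged 1134 ± 287 in KO and 1422 ± 396 in WT (-0.32, adjusted p = 0.529). Erythroid markers, 6 of 11 measured, summed to 3687 to 5672 in KO and 3710 to 6211 in WT, with 0 passing, none at 0 and Hba-a1 and Epb42 below the filter. The part of red cell RNA in Slc25a37 and Slc25a38 was not tested. The pyrimidine nucleotide carriers Slc25a33 and Slc25a36 differed by 0.08 and -0.04.

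Of the members given no substrate here 6 of 7 were tested and 0 passed. Slc25a46, an outer membrane protein of mitochondrial shape, differed by 0.12, and Slc25a47, known from liver, by 0.02. Slc25a48 averaged 87.6 ± 13.6 in KO and 129 ± 27.7 in WT (log2 difference -0.42, adjusted p = 0.392), near the filter. Slc25a16, Slc25a45 and Slc25a53 differed by -0.19, -0.20 and 0.08. Slc25a54 was too dim to be tested. The 6 untested genes, Slc25a13, Slc25a14, Slc25a18, Slc25a31, Slc25a41 and Slc25a54, had mean signals of 16.4 to 75.9, against 105 to 18500 among the tested members.

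Probe sets of a gene agreed in sign for 13 of the 19 members with several tested probe sets, and 6 had both signs. Of all 74 tested Slc25a probe sets 3 passed, the brightest of Slc25a27, Slc25a35 and Slc25a25.

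**Figure D3:**
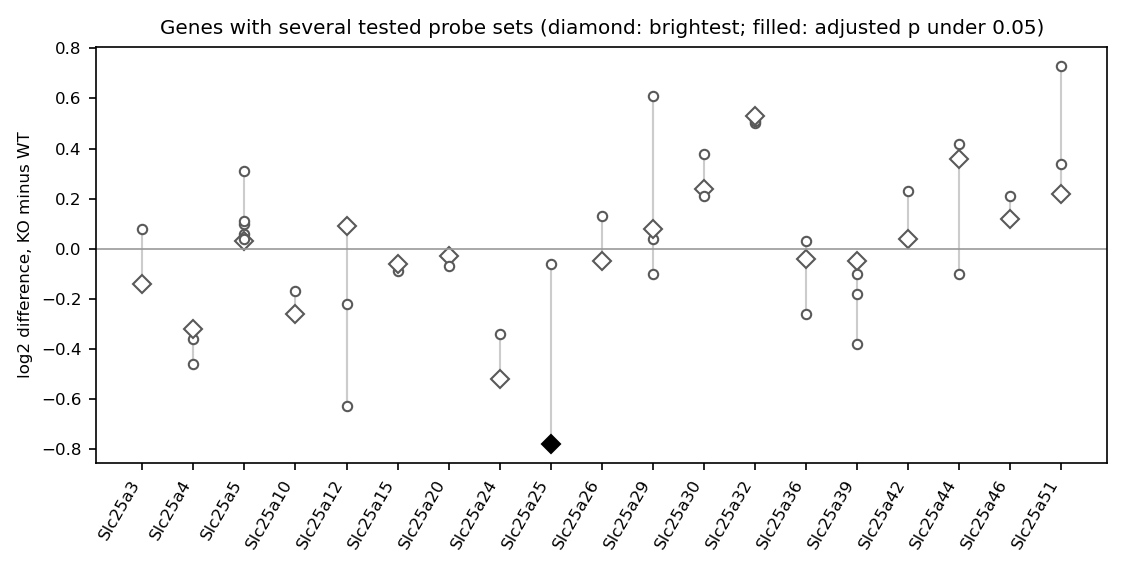
Log2 difference (KO minus WT, vertical axis) of each tested probe set for the 19 Slc25a genes with several; diamonds are the brightest probe set, and the filled one, Slc25a25 at -0.78, passed. The probe sets of Slc25a4 lie together (-0.46 to -0.32), as do those of Slc25a32 (0.50 to 0.53), while those of Slc25a25 (-0.78 and -0.06) lie apart.

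Leaving out KO replicate 1, 3 or 4 or any WT array put Slc25a27, Slc25a35 and Slc25a25 above the threshold, with adjusted p between 0.0608 and 0.157. Their log2 differences were at least 0.81 for Slc25a27 and stayed at -0.84 to -0.65 for Slc25a35 and -0.90 to -0.62 for Slc25a25 over the 7 fits that left out 1 array each. With the deposit block as a covariate all 3 passed. None of the 3 passed when no filter on dim probe sets was used (limma adjusted p from 0.0695 to 0.0894) or when the variance model had no trend (0.0797 to 0.111), and Slc25a35 did not pass with scaling by the array median (0.0746).

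**Figure D4:**
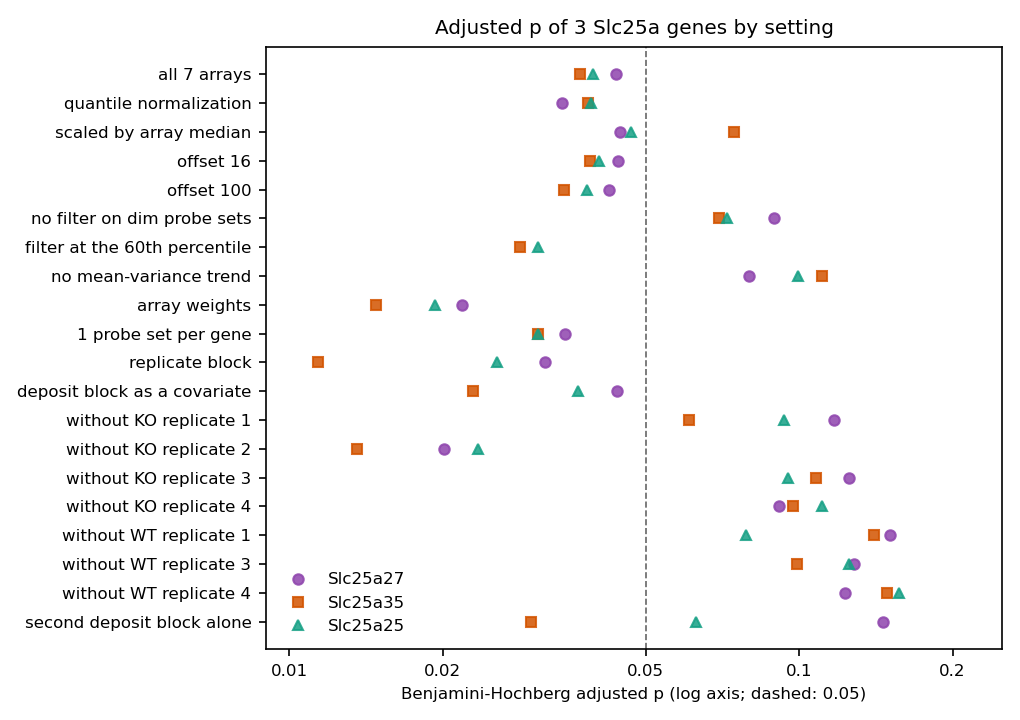
Benjamini-Hochberg adjusted p (log axis) of Slc25a27, Slc25a35 and Slc25a25 under each way of processing the arrays or leaving 1 out, with the threshold of 0.05 as a dashed line. All 3 lie left of the line without KO replicate 2 (0.0136 to 0.0234) and right of it without any other array; Slc25a27 has no point under the filter at the 60th percentile, where it was not tested.

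Marker lists with a passing member or with sums that did not overlap between genotypes were those of dividing cells, endothelium and neutrophils. Cell cycle markers (8 of 9 measured, none at 0) summed to 1489 to 3132 in KO and 3504 to 4894 in WT, and 3 of them fell: Mcm2, Mcm5 and Rrm2. Endothelial markers (5 of 5 measured, none at 0) summed to 6930 to 7498 in KO and 7590 to 9496 in WT, with 0 passing. Of these genes Kdr alone did not overlap between groups (20% of the list, against 16.7% of all genes). Log2 differences were below 0 for 4 of 5, and Tek lay above 0 (0.13). Neutrophil markers (9 of 10 measured, none at 0, Elane below the filter) summed to 6575 to 11406 in KO and 4555 to 7006 in WT, and 1 of them, Chil3, passed, higher in KO. All 8 tested neutrophil markers had log2 differences above 0 (median 0.60). White fat markers (6 of 6 measured, none at 0, 0 passing) summed to 9402, 13372, 9615 and 9526 in KO replicates 1 to 4, against 12719 to 13425 in WT. The array labelled KO replicate 2 lay within the WT range and the other KO arrays below it. The groups did not overlap for Lep, the leptin gene (log2 difference -0.92, limma adjusted p = 0.141), or Hoxc8 (-0.98, adjusted p = 0.124). These are 33.3% of the white fat list, against 16.7% of all genes. Retn also lay below 0 (-0.49), while Nrip1, Agt and Hoxc9 lay above it, at 0.32, 0.23 and 0.33. Fibroblast markers (6 of 6 measured, none at 0, 0 passing) all had log2 differences below 0, and summed to 27866 to 44509 in KO and 42752 to 48427 in WT. Liver markers (4 of 5 measured, none at 0, 0 passing) varied widely between arrays of the same genotype. They summed to 2351, 16741, 1196 and 14121 in KO replicates 1 to 4, against 9423, 2291 and 29309 in WT replicates 1, 3 and 4. All 4 had log2 differences below 0 (median -0.74). Without the array labelled KO replicate 2, markers lower in KO numbered 3 of 6 tested for white fat (Hoxc8, Lep and Retn), 2 of 6 for fibroblasts (Fap and Lum) and 6 of 8 for the cell cycle. Those higher numbered 3 of 8 for neutrophils (Chil3, Lcn2 and Ngp) and 1 of 8 for macrophages (Lyz2). With all 7 arrays 5 of the 8 macrophage markers lay below 0. Their sums overlapped, at 9183 to 15607 in KO and 11219 to 12214 in WT. Over all genes 8.43% passed without that array, and 1.85% with all 7 arrays. The part of these cell types in the differences of Slc25a27, Slc25a35 and Slc25a25 was not tested, and in bulk RNA fewer cells of a type and less RNA per cell cannot be told apart.

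Of 4 tested family members with other symbols 0 passed. Ucp1 averaged 31505 ± 4630 in KO and 30978 ± 2390 in WT (log2 difference 0.02), where the brightest probe set of an array read 31040 to 40460 and differences can be compressed. Ucp3, an uncoupling protein known from muscle and brown fat, read 1586, 2812, 1290 and 1184 in KO replicates 1 to 4, against 2744, 1965 and 2045 in WT. The array labelled KO replicate 2 was the highest of all 7 and the other KO arrays were the lowest (-0.45, limma adjusted p = 0.42). Without that array, Ucp3 was lower in KO (-0.72, limma adjusted p = 0.0238). It was the 1 gene of these 4 then called (25%, against 8.43% of all genes). The outer membrane relatives Mtch1 and Mtch2 differed by -0.13 and 0.14.

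Other transporters of mitochondrial membranes had 2 of 21 tested genes higher and 0 lower (9.52%, against 1.85% of all genes, median log2 difference 0.04). Slc8b1, the sodium-calcium exchanger that lets calcium out of mitochondria, read 1119, 781.3, 767.8 and 1059 in KO, against 452.5, 455.9 and 451.2 in WT. All KO arrays lay above all WT arrays (log2 difference 0.97 ± 0.16, limma adjusted p = 0.0228). Abcb6, an ABC transporter of porphyrins, averaged 1729 ± 118 in KO and 1140 ± 103 in WT (0.59 ± 0.11, adjusted p = 0.0358). Micu2, a regulator of calcium uptake, and Sfxn4 were next by p, at -0.50 and -0.65, and did not pass. Without the array labelled KO replicate 2, Slc8b1 and Abcb6 were higher (adjusted p = 0.00456 and 0.0101) and Micu2 was lower (adjusted p = 0.0108), which is 14.3% of the list, against 8.43% of all genes.

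In the import route of carriers 0 of 11 tested genes passed (median -0.04). The import pore gene Tomm40, the import receptor gene Tomm22 and the chaperone gene Timm10b differed by -0.35, -0.29 and -0.34 with no overlap between groups. They are 27.3% of the list, against 16.7% of all genes. Tomm70a, the receptor to which carriers dock, differed by 0.38. Of the 11 genes, Tomm70a alone was called without the array labelled KO replicate 2, where it was higher (adjusted p = 0.0335). This is 9.09% of the list, against 8.43% of all genes. Of 37 tested enzymes that act on carrier substrates 1 passed (2.7%, against 1.85% of all genes). It was Rrm2, which is also a cell cycle marker (log2 difference -1.58). In its list of 8 tested nucleotide enzymes the median was -0.13. The enzymes of citrate and malate had 0 of 10 passing (median -0.07) and those of carnitine 0 of 3 (median -0.30). Enzymes of ornithine and glutamate had 0 of 4 passing (median 0.28), those of branched-chain amino acids 0 of 3 (0.32), of iron and haem 0 of 4 (-0.09), of glycine and folate 0 of 4 (-0.05) and of creatine 0 of 1. In the glutamate list Glud1, glutamate dehydrogenase, differed by 0.50. In the branched-chain list Bckdha and Bcat2, which break down the amino acids that Slc25a44 carries, differed by 0.34 and 0.32. Bckdhb, the remaining gene of that list, lay below 0 (-0.13, limma adjusted p = 0.569). None of these genes passed. Without the array labelled KO replicate 2 the enzymes that passed were Rrm2, lower, and Glud1, higher (adjusted p = 0.00177 and 0.00886). These are 5.41% of the 37 enzymes, against 8.43% of all genes.

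Solute carriers outside the Slc25a family had 7 of 192 tested genes higher and 1 lower (4.17%, against 1.85% of all genes), with a median log2 difference of 0.01. The risers were Slc2a3 (a glucose transporter, 2.84-fold), Slc38a2 (a neutral amino acid transporter, 2.66-fold), Slc15a2 (a peptide transporter, 2.31-fold), Slc5a3 (the sodium-myo-inositol transporter, 2.01-fold), Slc8b1 (1.96-fold), Slc1a3 (a glutamate transporter, 1.86-fold) and Slc66a2 (1.55-fold), and Slc29a1, a nucleoside transporter, was 1.71-fold lower. Without the array labelled KO replicate 2, 16 were higher and 5 lower (10.9%, against 8.43% of all genes). The difference between this share and that of the Slc25a family was not tested.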

How the data were processed

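Total RNA had been labelled with biotin and each sample hybridised to 1 array, per the labels. The deposited table holds a linear signal intensity for each probe set on each array. The submitters' processing notes name GCOS 1.2; how arrays were scaled is not given in the sources. Values came without detection calls. Of 45101 probe sets 64 controls were left out, and the probe table gave 1 gene symbol for 34945 of the rest, several for 932 and none for 9160. Probe sets with several symbols were not used.

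An offset of 30.6, the 20th percentile of all values, was added before taking log2, so that log2 differences and folds understate the change of dim probe sets. The filter dropped probe sets below the 40th percentile of the mean log2 value across the 7 arrays, without regard to genotype, and kept 27022 probe sets for 13102 genes. The KO arrays (n = 4) and WT arrays (n = 3) were compared by a two-sided moderated test in limma 3.58.1 (R 4.3.3), whose eBayes step used a mean-variance trend, at a threshold of 0.05 after Benjamini-Hochberg adjustment. Means are of signals with SD. No covariate was used in the fit reported.

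On simulated data over 27022 probe sets, of which 200 were changed, the fit found 1.49% of those changed by 0.5 on the log2 scale. It found 53.7% at a change of 1 and 83.3% at 2, with 0 false calls. The simulated noise was independent for each probe set and array, with no array set apart from its group and no deposit blocks. These rates therefore need not hold for the arrays measured. The median size of the log2 difference in the Slc25a family was 0.19. The number of arrays limits the precision.

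Named were all members that passed, up to 12 with the smallest p in each direction and the family members with other symbols; of the other lists, members that passed and up to 4 by p. The remaining members are given by value or range. The members and lists were chosen with earlier results of these data known. Alternatives were other normalizations, offsets, filters and variance models, 1 probe set per gene, wider membership, the replicate number or the deposit block in the model, leaving out each array and, added after seeing the data, the second deposit block alone. Promoter windows are those of RefSeq, GRCm38.p6.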

Additional observations from a re-analysis of the deposited data

Results flagged for a closer look

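In KO, Slc25a34 read 2175.9 on KO replicate 3, apart from the other KO arrays at 3436.8 to 3596.2. The gap to the nearest array was 0.888 of the range of the KO group, above the 95% limit of Dixon's test for 4 values (0.829). It was the 1 member so marked of 38 checked, and chance marks about 1 group in 20.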

How the results depend on the processing

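With all 7 arrays 431 probe sets passed, 1 Slc25a gene was higher and 2 were lower. The count over all probe sets was 235 with scaling by the array median, 100 with no filter on dim probe sets, 6 with no mean-variance trend, 1312 with array weights and, in an alternative added after seeing the data, 726 in the second deposit block alone. Over the fits that left out 1 array it ranged from 7 (without WT replicate 4) to 1986 (without KO replicate 2). Slc25a genes higher in KO numbered 0 with no filter, with the filter at the 60th percentile, where Slc25a27 was not tested, and with no trend. Those lower numbered 1 with scaling by the array median (Slc25a35 lost, adjusted p = 0.0746), 0 with no filter, 0 with no trend and 1 in the second block alone (Slc25a35), where the 1 higher gene was Slc25a22 and Slc25a27 and Slc25a25 were not called (adjusted p = 0.146 and 0.0628). Leaving out 1 array gave 0 to 1 higher and 0 to 3 lower. The family median ranged from -0.05 to 0.01 over those fits and was -0.05 with no filter. The replicate block also takes KO replicate 2, which has no WT partner, out of the comparison, and leaving out that array alone gave 1986. With the replicate block 2183 probe sets passed, with 2 Slc25a genes higher (Slc25a22 and Slc25a27) and 4 lower (Slc25a4, Slc25a24, Slc25a25 and Slc25a35). Deviations of same-numbered KO and WT arrays correlated at 0.06, 0.15 and 0.11. WT replicate 1 correlated best with KO replicate 2 (0.18), and WT replicates 3 and 4 with the KO array of their own number. Correlations over so few arrays cannot tell whether same-numbered samples were paired, and the labels give only the replicate number. Slc25a17 ranged from -0.01 (without WT replicate 4, a reversal) to 0.36 over the fits that left out 1 array, and Slc25a29 turned to -0.00 in the second block alone. Among the 24 Slc25a genes followed, the other settings left 420 values on the same side of the threshold and in the same direction. Most of the 24 genes did not pass with all arrays. Of the 3 that did, Slc25a35 and Slc25a25 each passed in 10 of 19 other settings and Slc25a27 in 9 of 18. Low signal limits Slc25a27 and Slc25a48, which lie near the filter, and the 6 untested genes. The cause of these shifts was not tested.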
